A study of Arabidopsis thaliana with 17 samples.

Results

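The step from 6 h to 12 h after wounding was described in etiolated hypocotyls of Arabidopsis thaliana, the stems of seedlings grown in darkness. The hypocotyls had been cut sharply and kept in the dark on MS-0 plates, in a study of the callus that forms at wounds. The 3 libraries of the 12 h group (cut hypocotyls, 12 h in the dark) were compared with the 3 libraries of the 6 h group (cut hypocotyls, 6 h in the dark). Both groups carry the cut, and the plants are described with no mutation or added agent. Of the 17 libraries, the others were taken at 0, 1, 3 and 24 h (3 each, and 2 at 24 h). Uncut hypocotyls kept for the same hours were not analysed here, so time after the cut and time on the plate cannot be told apart. Genes were kept where RPKM, the mapped read number scaled by gene length and library depth, reached at least 1 in at least 2 of the 6 libraries: 18591 of 28642 genes (64.9%) did so. Of these, 542 passed only through the 12 h libraries and 187 only through the 6 h libraries. Such genes lean to the group that let them pass, so a call in that direction is partly built in. List counts and medians below include them.

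DNA is copied in S phase of the cell cycle. Origins are licensed in G1 by the origin recognition complex with CDC6 and CDT1, which load the MCM helicase. E2F factors, held back by the retinoblastoma-related protein RBR1, switch on many replication genes in plants, and cyclin D activity releases that block. Genes of mitosis follow, many of them under 3-repeat MYB factors that bind the M-specific activator sequence.

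The 6 libraries held between 7807453 and 7872179 mapped reads, so depth hardly differed between the groups. At this depth 3 reads on a gene of 1 kb correspond to between 0.381 and 0.384 RPKM. Across genes, Pearson's r of log2(RPKM + 1) was between 0.983 and 0.988 within the 12 h group, between 0.986 and 0.988 within the 6 h group and between 0.924 and 0.937 across the groups. Replicate 1 at 12 h stood apart. It held transcripts of leaf-type photosynthesis genes and of anthocyanin genes that were at or near 0 in the 5 other libraries. The counts and median of the green-tissue list, and some of its genes, are therefore given with and without this replicate. Replicate 1 was also the highest 12 h library in 11 of 13 genes of tryptophan and camalexin synthesis (84.6%) and in 12 of 15 indole glucosinolate genes (80%), against 26.1% of all tested genes. Values below are in the order of replicates 1, 2 and 3. The labels do not say whether replicates came from separate plants, so each p-value measures only spread between libraries. That spread was taken within time points over all 17 libraries of the fit, not from the 6 h and 12 h libraries alone.

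Between 6 h and 12 h much of the transcriptome moved. In limma, 9491 of the 18591 genes (51.1%) passed an adjusted p of 0.05, with 6263 higher (33.7%) and 3228 lower (17.4%) at 12 h. These shares are the background for all list counts below. A change of at least 2-fold was found in 1064 of the genes called higher (5.72%) and 865 of those called lower (4.65%). Over all tested genes the log2 change had a median of 0.135 toward 12 h. When each library was centred on its own median, 4414 genes were called higher and 4411 lower, so list medians are also given relative to that shift. Log2 changes are on the scale of log2(RPKM + 1), which understates the change of genes at low levels. In pieces of stem, fewer cells of a type and less RNA per cell cannot be told apart, and this holds for every change below.

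Replication genes rose as a group, to a summed level above that at 0 h. Of 61 listed genes 59 were tested, 5 of them through the 12 h libraries alone, and 49 were higher at 12 h and 0 lower, against 33.7% higher and 17.4% lower among all tested genes. A further 10 were not called. In 48 of the 59 genes every 12 h library lay above every 6 h library, which was so for 39.4% of all tested genes. The median log2 change was 0.95, or 0.81 above the median of all tested genes. The summed level of the whole list was 746.8, 840.0 and 821.5 RPKM in the 12 h libraries, against 407.4, 400.2 and 413.2 RPKM in the 6 h libraries, so the groups were well apart. Over the course of the experiment that sum was between 509 and 545 RPKM at 0 h, between 284 and 293 RPKM at 1 h, between 328 and 334 RPKM at 3 h and between 936 and 967 RPKM at 24 h. The 12 h mean exceeded the 0 h mean in 54 of the 59 tested genes (91.5%), compared with 55.1% of all tested genes, and the 24 h mean exceeded the 12 h mean in 53 (89.8%), compared with 53.8%.

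**Figure D1:**
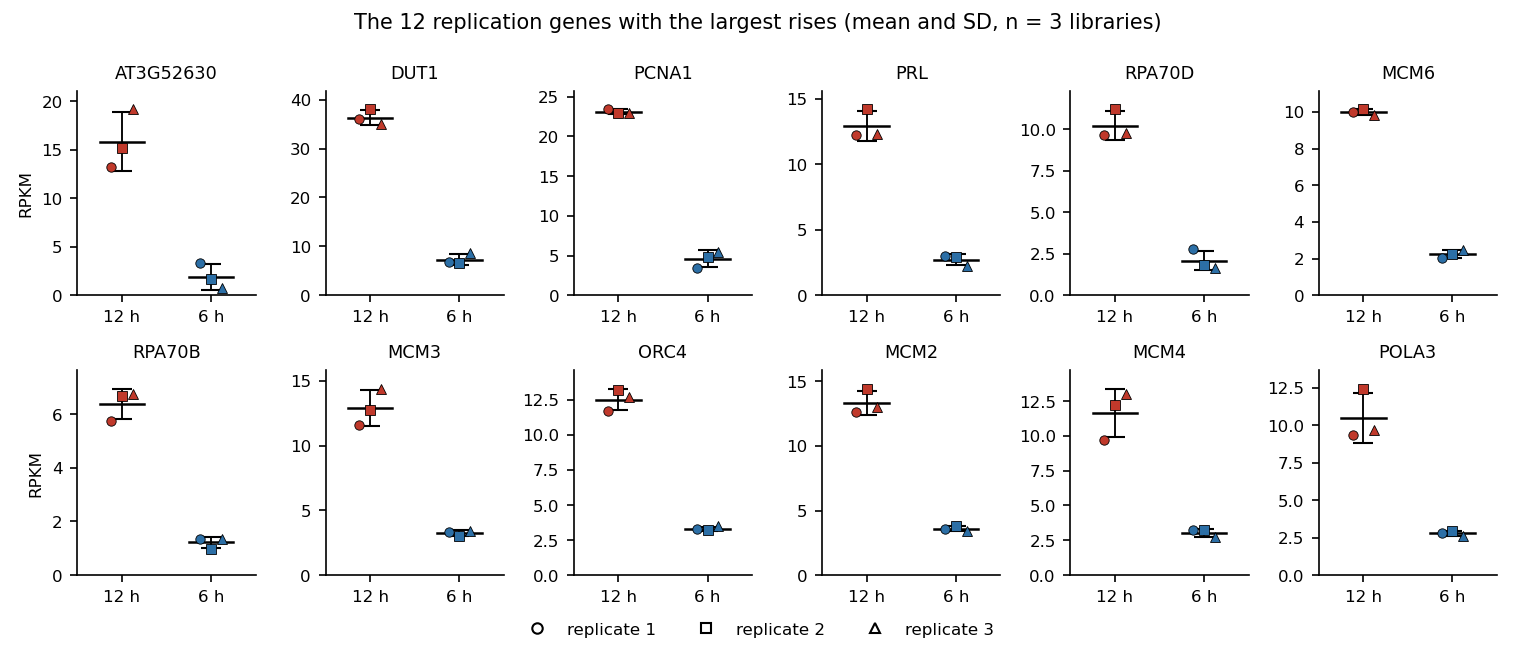
RPKM (vertical axes, from 0) of the 12 replication genes with the largest rises in each library at 12 h (red) and 6 h (blue), with the mean as a line and the SD as a bar (n = 3), and a circle, square and triangle for replicates 1, 2 and 3. In each panel the 3 libraries of 12 h lie above the 3 libraries of 6 h.

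Promoters of the list often carried E2F letters. TTTCCCGC, TTTCGCGC, TTTGCCGC or TTTGGCGC, on either strand between 250 bases before and 50 bases after the RefSeq start, occurred in 22 of 61 replication promoters (36.1%) and in 1.76% of all protein-coding promoters. The share was 45.5% in licensing genes, 46.2% in the helicase genes, 50% in polymerase genes, 26.3% in clamp and single-strand binding genes and 12.5% in genes of deoxynucleotide supply. Of the 4 replication genes with the largest rises, only AT3G52630 had such letters in this window. Its 250 bases before the start, on the plus strand at chr3:19513687-19513936 of TAIR10.1, are shown to place the motif (capitals), which begins 9 bases before the start. The match is a description of letters, not a binding site.
AT3G52630: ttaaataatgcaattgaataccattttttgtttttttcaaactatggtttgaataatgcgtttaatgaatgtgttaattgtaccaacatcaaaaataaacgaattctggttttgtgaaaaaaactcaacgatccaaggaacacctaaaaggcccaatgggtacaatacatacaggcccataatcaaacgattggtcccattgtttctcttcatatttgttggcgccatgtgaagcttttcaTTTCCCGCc

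Among licensing genes, 8 of 11 were called higher, 1 was not called and 2 were below the filter. ORC4, a subunit of the origin recognition complex, had 11.7, 13.2 and 12.7 RPKM at 12 h, against 3.27, 3.2 and 3.47 RPKM at 6 h (log2 change 1.65, SE 0.1, limma adjusted p = 1.47e-08). All 12 h libraries were above all 6 h libraries, by more than the spread of either group. CDC6, which helps load the helicase, had 2.5, 2.23 and 2.51 RPKM at 12 h, against 0.418, 0.21 and 0.491 RPKM at 6 h, near the depth limit at 6 h. It passed the filter through the 12 h libraries alone, as did ORC2, so their differences are given as values only. CDT1A, the other loading factor, had 6.7, 6.58 and 8.54 RPKM at 12 h, against 3.32, 2.64 and 3.09 RPKM at 6 h (log2 change 1.04, SE 0.13, limma adjusted p = 9.33e-06), again with no overlap between the groups. ORC3, ORC6, ORC1B and CDT1B rose by between 0.84 and 1.2 on the log2 scale. ORC5 was not called, with 7.05, 6.47 and 5.88 RPKM at 12 h, against 6.21, 7.02 and 5.38 RPKM at 6 h (log2 change 0.06, SE 0.15, limma adjusted p = 0.784). Its groups overlapped. ORC1A and AT1G07270, annotated as a further Cdc6, did not pass the filter.

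Of the MCM helicase and its partners 12 of 13 genes were called higher, 10 of them by at least 2-fold. PRL, the MCM7 subunit, had 12.2, 14.2 and 12.3 RPKM at 12 h, against 2.99, 2.91 and 2.23 RPKM at 6 h (log2 change 1.91, SE 0.14, limma adjusted p = 6.56e-08). MCM6 had 9.97, 10.2 and 9.81 RPKM at 12 h, against 2.04, 2.25 and 2.46 RPKM at 6 h (log2 change 1.76, SE 0.14, limma adjusted p = 9.52e-08). MCM2 had 12.7, 14.4 and 13 RPKM at 12 h, against 3.6, 3.83 and 3.38 RPKM at 6 h (log2 change 1.64, SE 0.1, limma adjusted p = 1.47e-08). In all 3 genes the 12 h libraries lay close together and far above the 6 h libraries. MCM3, MCM4 and MCM5 rose by 1.71, 1.64 and 1.38 on the log2 scale, so the 6 ring subunits spanned only 1.38 to 1.91. CDC45, which joins the ring to form the active helicase, had 1.49, 2.36 and 1.5 RPKM at 12 h, against 0.288, 0.231 and 0.232 RPKM at 6 h, a low level in all libraries. CDC45 and MCM10 (log2 change 1.59) passed the filter through the 12 h libraries alone. ETG1, a replication factor that binds the ring, rose by 1.24. Of the GINS complex, the ring's other partner, PSF2, PSF1 and SLD5 rose by 1.1, 0.88 and 0.76. TTN10, its PSF3 subunit, was not called (log2 change 0.31, SE 0.17, limma adjusted p = 0.149), although it was called without 6 h replicate 3 (log2 change 0.47, limma adjusted p = 0.0353).

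Of 10 polymerase and primase genes 9 were called higher. Primase lays the RNA primers, and its small subunit POLA3 had 9.33, 12.4 and 9.68 RPKM at 12 h, against 2.83, 2.92 and 2.61 RPKM at 6 h (log2 change 1.59, SE 0.14, limma adjusted p = 4.26e-07). The large primase subunit EMB2813 rose by 1.58 and POLA2, which joins primase to the polymerase, by 1.45. ICU2, the catalytic subunit of DNA polymerase alpha, had 8.22, 9.68 and 8.69 RPKM at 12 h, against 3.14, 2.9 and 3.11 RPKM at 6 h (log2 change 1.28, SE 0.11, limma adjusted p = 3.17e-07). TIL1, the catalytic subunit of DNA polymerase epsilon that copies the leading strand, had 7.4, 7.48 and 8.2 RPKM at 12 h, against 3.57, 3.66 and 3.28 RPKM at 6 h (log2 change 0.95, SE 0.09, limma adjusted p = 7.71e-07). Both catalytic genes were separated completely between the groups. For polymerase delta the catalytic gene AT5G63960 rose by 1.25, POLD3 by 0.89 and POLD2 by 0.58. POLD4, its smallest subunit, was not called, with 38.8, 44.1 and 47.3 RPKM at 12 h, against 41, 44.2 and 45.2 RPKM at 6 h (log2 change -0.01, SE 0.1, limma adjusted p = 0.967), and it was already higher at 6 h than any of the catalytic genes.

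Among clamp, loader, single-strand binding and strand-joining genes 16 of 19 were called higher. AT3G52630, annotated with the synonym RPA3A (the small subunit of replication protein A, which coats single-stranded DNA), had 13.2, 15.1 and 19.2 RPKM at 12 h, against 3.31, 1.66 and 0.714 RPKM at 6 h (log2 change 2.63, SE 0.25, limma adjusted p = 7.36e-07). This was the replication gene with the largest rise, and its 6 h libraries also varied. PCNA1, the sliding clamp, had 23.4, 23 and 22.9 RPKM at 12 h, against 3.48, 4.86 and 5.5 RPKM at 6 h (log2 change 2.12, SE 0.14, limma adjusted p = 2.97e-08), with nearly equal values in the 12 h libraries. PCNA2 had 33.6, 32.9 and 36.7 RPKM at 12 h, against 12.6, 10.7 and 14.4 RPKM at 6 h (log2 change 1.39, SE 0.1, limma adjusted p = 6.03e-08). Neither clamp gene had overlapping groups. At 0 h PCNA1 averaged 14.1 RPKM and PCNA2 18.6 RPKM. RPA70D, RPA70B and RPA2 rose by 1.87, 1.74 and 1.54, while RPA1A, another large subunit, was not called (log2 change -0.06, SE 0.1, limma adjusted p = 0.659). Clamp loader genes changed by smaller folds. RFC2, EMB1968, EMB2775 and RFC3 rose by between 0.5 and 0.73, and RFC1, the large subunit, was not called with all libraries (log2 change 0.19, SE 0.08, limma adjusted p = 0.0586) but was without 12 h replicate 1 (log2 change 0.27, limma adjusted p = 0.014). LIG1, which joins Okazaki fragments, had 21.2, 23.3 and 23.6 RPKM at 12 h, against 15.4, 15.5 and 14.6 RPKM at 6 h (log2 change 0.55, SE 0.08, limma adjusted p = 2.61e-05). AT5G26680, annotated as a 5′-3′ exonuclease, rose by 0.48. AT4G18590 (synonym RPA3B) was not called (log2 change 0.25, SE 0.11, limma adjusted p = 0.0736), but was without 6 h replicate 3 (log2 change 0.39, limma adjusted p = 0.00466). The RPA and PCNA genes have close copies, and how reads matching several copies were counted is not given in the sources used here.

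Deoxynucleotide supply was split, with 4 of 8 genes called higher. DUT1, which removes dUTP so that uracil does not enter DNA, had 36, 38.1 and 34.9 RPKM at 12 h, against 6.71, 6.56 and 8.61 RPKM at 6 h (log2 change 2.18, SE 0.19, limma adjusted p = 2.58e-07). RNR1, the large subunit of ribonucleotide reductase, had 50.5, 55.8 and 54.8 RPKM at 12 h, against 18.5, 18 and 17.7 RPKM at 6 h (log2 change 1.52, SE 0.06, limma adjusted p = 5.09e-10). TSO2, a small subunit of the same enzyme, had 57.4, 66.5 and 57.5 RPKM at 12 h, against 21.7, 22.5 and 19.2 RPKM at 6 h (log2 change 1.47, SE 0.09, limma adjusted p = 1.03e-08). All 3 genes were at least 2-fold higher in every 12 h library than in any 6 h library. RNR2A, another small subunit gene, was not called, with 18.5, 19.1 and 19.1 RPKM at 12 h, against 20.9, 19.2 and 19.3 RPKM at 6 h (log2 change -0.06, SE 0.1, limma adjusted p = 0.638). The thymidylate synthase gene THY-2 passed the test (log2 change 0.36, SE 0.13, limma adjusted p = 0.033), but its groups overlapped and the call was lost in 6 of 15 alternative analyses. THY-1 (0.08) and the thymidine kinase genes TK1a (-0.12) and TK1b (-0.07) were not called. Whether TK1a is called lower depends on scaling: it was after median centring (log2 change -0.24, limma adjusted p = 0.0417).

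Genes that rebuild chromatin behind the fork mostly rose. Of 14 tested, 1 of them through the 12 h libraries alone, 10 were higher and 1 lower, against 33.7% and 17.4% of all tested genes. The median log2 change was 0.6, or 0.46 above that of all tested genes. CHR1, the remodeller also named DDM1 that maintains DNA methylation, had 8.02, 8.72 and 9.47 RPKM at 12 h, against 3.19, 2.9 and 2.02 RPKM at 6 h (log2 change 1.41, SE 0.14, limma adjusted p = 8.18e-07). FAS1 and FAS2, subunits of the chromatin assembly factor that deposits histones on new DNA, rose by 1.34 and 1.36. MET1, the methyltransferase that copies CG methylation, had 18.4, 21.6 and 20.3 RPKM at 12 h, against 8.2, 7.86 and 9.81 RPKM at 6 h (log2 change 1.14, SE 0.11, limma adjusted p = 7.46e-07), and CMT3, which methylates CHG sites, rose by 1.3. The groups did not overlap for these 5 genes. VIM2, from a family that recruits MET1, went the other way, with 2.42, 3.23 and 2.11 RPKM at 12 h, against 9.19, 11.9 and 12.9 RPKM at 6 h (log2 change -1.78, SE 0.18, limma adjusted p = 1.25e-06). Its 6 h libraries were at least 2-fold above every 12 h library. VIM3 was called higher (0.41), with overlapping groups and the call lost in 7 of 15 alternatives, and VIM1 was not called (0.1). VIM family members are alike in sequence, so the split between them is uncertain.

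Core histones package the new DNA, and H3.1 is the H3 form deposited during replication. Of 28 genes, 22 were higher and 1 lower, against 33.7% and 17.4% of all tested genes. The list median was 0.56 above that of all tested genes. All 5 H3.1 genes rose by at least 2-fold, with a median log2 change of 1.67. AT5G10390 had 26.2, 23.3 and 21.7 RPKM at 12 h, against 3.44, 3.81 and 3.27 RPKM at 6 h (log2 change 2.45, SE 0.15, limma adjusted p = 1.2e-08). AT1G09200 had 55.7, 70.5 and 58.8 RPKM at 12 h, against 15.9, 16.4 and 18.4 RPKM at 6 h (log2 change 1.8, SE 0.12, limma adjusted p = 3.44e-08). AT5G65360, the H3.1 gene with the smallest rise, had 64.5, 64.8 and 64.5 RPKM at 12 h, against 32.9, 26.7 and 25.5 RPKM at 6 h (log2 change 1.17, SE 0.09, limma adjusted p = 1.24e-07). Groups were apart for each of them, and the 3 genes ended at different levels. For H4, 7 of 8 genes rose, the 4 largest being AT3G46320 (1.74), AT5G59970 (1.61), AT5G59690 (1.29) and HIS4 (1.16). The remaining H4 gene, AT1G07660, fell (26.6, 28.9 and 31.1 RPKM at 12 h, against 38.5, 35.5 and 38.9 RPKM at 6 h; log2 change -0.37, SE 0.08, limma adjusted p = 0.00114). Of H2A genes 6 of 9 rose, led by HTA6 with 60.6, 71.8 and 57.7 RPKM at 12 h, against 19.6, 18.7 and 19.4 RPKM at 6 h (log2 change 1.66, SE 0.1, limma adjusted p = 8.53e-09), while RAT5 (-0.18) and HTA12 (-0.1) were not called. Of H2B genes 4 of 6 rose, led by HTB2 with 75.7, 84.1 and 74.7 RPKM at 12 h, against 26.6, 30.3 and 23.6 RPKM at 6 h (log2 change 1.51, SE 0.09, limma adjusted p = 1.29e-08). The whole list summed to 1650, 1776 and 1641 RPKM at 12 h, against 1151, 1094 and 1021 RPKM at 6 h, and to between 1667 and 1820 RPKM at 0 h. Histone genes of a type encode nearly identical proteins, so reads may be split between them.

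Histone promoters often held another motif. The M-specific activator core, CAACGG or TAACGG, was found in 17 of 28 histone promoters (60.7%), in all 5 of the H3.1 genes and in 12.8% of all protein-coding promoters. E2F letters were found in 10.7% of the histone promoters. The H3.1 gene with the largest rise is shown with its cores, read on either strand, in capitals, which begin 93 and 71 bases before the start, for the minus strand at chr5:3269595-3269844 of TAIR10.1. CYCB1;3, a B-type cyclin described below, is shown for comparison, with cores 64 and 40 bases before the start on the minus strand at chr3:3627274-3627523. A further core of CYCB1;3 begins 5 bases before the start and runs past the printed end, so its letters are not in capitals.
AT5G10390: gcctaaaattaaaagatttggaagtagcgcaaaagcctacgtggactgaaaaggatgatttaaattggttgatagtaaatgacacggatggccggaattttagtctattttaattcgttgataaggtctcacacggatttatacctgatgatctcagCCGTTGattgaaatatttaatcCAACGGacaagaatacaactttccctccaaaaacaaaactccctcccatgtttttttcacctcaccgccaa
CYCB1;3: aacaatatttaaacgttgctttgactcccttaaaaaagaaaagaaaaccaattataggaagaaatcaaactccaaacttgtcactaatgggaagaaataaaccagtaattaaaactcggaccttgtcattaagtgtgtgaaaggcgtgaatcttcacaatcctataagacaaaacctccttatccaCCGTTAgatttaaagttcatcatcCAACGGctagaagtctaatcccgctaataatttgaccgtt

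Regulators of entry into S phase rose in part. Of 19 listed genes 17 were tested, 1 of them through the 12 h libraries alone and 1 through the 6 h libraries alone. Of the 17, 10 were higher and 1 lower, against 33.7% and 17.4% of all tested genes. The list median was 0.35 above that of all tested genes. CYCD3;1, the D-type cyclin known for driving division in response to cytokinin, had 31.9, 40.5 and 34 RPKM at 12 h, against 6.19, 5.97 and 7.7 RPKM at 6 h (log2 change 2.26, SE 0.11, limma adjusted p = 1.73e-09). It had averaged 45.7 RPKM at 0 h and 56.9 RPKM at 24 h, and every 12 h library was well above every 6 h library. CYCD1;1 and CYCD6;1 rose by 1.18 and 1.12, and CYCD3;2 and CYCD3;3 by 0.51 and 0.53. RBR1, the repressor of E2F, had 20.5, 23.3 and 22.6 RPKM at 12 h, against 14.9, 15.2 and 16.6 RPKM at 6 h (log2 change 0.48, SE 0.07, limma adjusted p = 3.94e-05), a small rise with no overlap. Among E2F genes the atypical repressor DEL1 rose by 1.23 and E2F3 (synonym E2FA) by 0.54, while DEL3 (log2 change 1.49) passed the filter through the 12 h libraries alone. E2F1 (synonym E2FB) was called lower (log2 change -0.32, SE 0.12, limma adjusted p = 0.0393), but its groups overlapped and the call was lost without 12 h replicate 1 (limma adjusted p = 0.153). The partners DPA and DPB were not called (0.16 and 0.13).

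Inhibitors of cyclin-dependent kinases did not move together: 3 of 13 were higher and 1 lower, no more than the 33.7% and 17.4% of all tested genes. Their median log2 change was 0.14, against 0.135 for all tested genes. SIM, which restrains mitosis in cells that endoreduplicate, had 32.7, 31.2 and 31.9 RPKM at 12 h, against 16.4, 15 and 14.9 RPKM at 6 h (log2 change 1, SE 0.1, limma adjusted p = 7.11e-07). ICK1 rose by 0.64 and KRP2 by 0.41. KRP6 fell, with 16.7, 22 and 19.4 RPKM at 12 h, against 25.7, 26.7 and 30.4 RPKM at 6 h (log2 change -0.49, SE 0.12, limma adjusted p = 0.00239). In these genes the 12 h and 6 h libraries did not overlap.

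Genes of G2 and mitosis rose as well. Of 38 genes 37 were tested, and 35 were higher and 1 lower, against 33.7% and 17.4% of all tested genes. The median log2 change was 1.44, or 1.31 above that of all tested genes. Of the 37, 13 passed the filter through the 12 h libraries alone, so a rise was partly built in for them. The count and the median without these 13 were not computed. The list summed to 362.5, 396.3 and 294.7 RPKM at 12 h, against 119.6, 113.9 and 117.2 RPKM at 6 h. Replicate 3 was lowest of the 12 h libraries in this sum and in 28 of the 37 tested genes (75.7%), against 30.1% of all tested genes, yet it remained above all 6 h libraries. This list had not regained its 0 h sum of between 473 and 527 RPKM. The 12 h mean was below the 0 h mean in 33 of the 37 genes (89.2%), compared with 44.9% of all tested genes. The 24 h mean was above the 12 h mean in all 37, compared with 53.8% of all tested genes. No test of the difference between the lists was made.

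**Figure D2:**
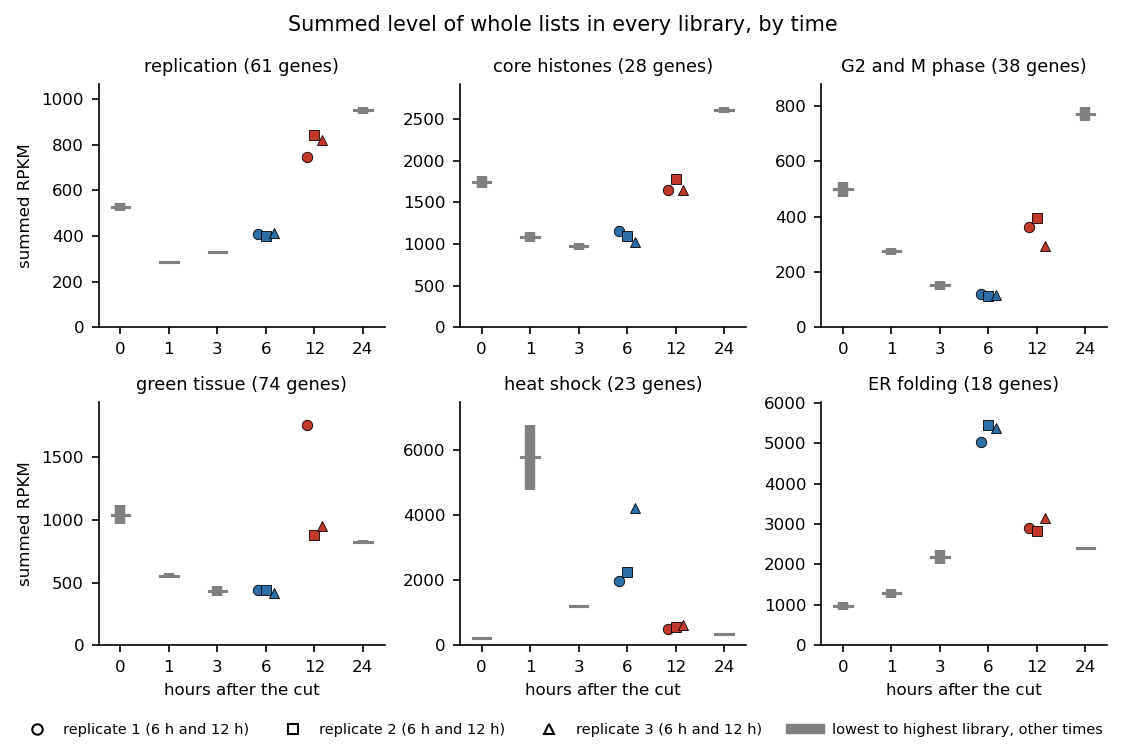
Summed RPKM (vertical axes, from 0) of 6 whole gene lists against hours after the cut, with points for each library at 12 h (red) and 6 h (blue) and grey bars from the lowest to the highest library at 0, 1, 3 and 24 h. At 12 h replication genes had passed their level at 0 h, while genes of G2 and mitosis lay between 294.7 and 396.3 RPKM, below theirs.

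CYCB1;4, a cyclin of mitotic entry, had 14, 12.9 and 10.2 RPKM at 12 h, against 2.3, 1.67 and 1.43 RPKM at 6 h (log2 change 2.25, SE 0.17, limma adjusted p = 7.65e-08). CYCB1;3 had 9.38, 9.82 and 5.92 RPKM at 12 h, against 1.25, 1 and 0.921 RPKM at 6 h (log2 change 2.16, SE 0.2, limma adjusted p = 4.99e-07). In both, 12 h replicate 3 was the lowest of its group and still above all 6 h libraries. CDKB2;1, a plant-specific mitotic kinase, had 30.6, 29.3 and 20.1 RPKM at 12 h, against 5.14, 4.29 and 5.17 RPKM at 6 h (log2 change 2.22, SE 0.17, limma adjusted p = 7.51e-08). Its groups did not overlap, and its mean at 0 h was 31 RPKM. The other B-type kinases CDKB1;1 and CDKB2;2 rose by 1.82 and 1.5, and CDKB1;2 had a log2 change of 1.44. CDC20.2, which activates the anaphase-promoting complex, rose by 2.07. MAD2, of the spindle checkpoint, had 20.6, 21.5 and 13.5 RPKM at 12 h, against 5.85, 2.7 and 3.88 RPKM at 6 h (log2 change 1.94, SE 0.19, limma adjusted p = 1.19e-06). SYP111, the syntaxin KNOLLE that builds the cell plate, had 18.9, 20.9 and 10.8 RPKM at 12 h, against 3.74, 3.75 and 3.44 RPKM at 6 h (log2 change 1.9, SE 0.19, limma adjusted p = 1.02e-06), and was at 41.2 RPKM at 0 h and 46.7 RPKM at 24 h. HIK, a kinesin of the cell plate, rose by 1.54 and AUR1, an Aurora kinase of the spindle, by 1.44. MYB3R-4, an activator of these genes, had a log2 change of 1.43, and like CDKB1;2 it passed the filter through the 12 h libraries alone. PC-MYB1 (synonym MYB3R1) was not called (log2 change 0.09, SE 0.09, limma adjusted p = 0.428). TES, another kinesin of cytokinesis, was the exception, with 4.22, 4.47 and 4.27 RPKM at 12 h, against 6.5, 7.84 and 6.46 RPKM at 6 h (log2 change -0.57, SE 0.11, limma adjusted p = 0.000345), all 12 h libraries below all 6 h libraries. M-specific activator cores stood in 60.5% of the promoters of the list, and E2F letters in 0 of them.

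Genes of green tissue rose in all 3 libraries of 12 h, but most in replicate 1. Of 74 genes of photosynthesis and chlorophyll synthesis 60 were tested, 7 of them through the 12 h libraries alone. Of the 60, 52 were higher and 0 lower, against 33.7% and 17.4% of all tested genes. The median log2 change was 1.81, or 1.67 above that of all tested genes. The list summed to 1761, 883.4 and 949.5 RPKM at 12 h, against 438.2, 437.6 and 417.7 RPKM at 6 h. Replicate 1 was the highest of the 12 h libraries in 57 of the 60 genes (95%), compared with 26.1% of all tested genes. Without it in the fit 51 of the same 60 genes were higher and 0 lower, with a median log2 change of 1.48. In that fit 31.8% of all tested genes were higher and 15.3% lower. The filter was still set on all 6 libraries, so replicate 1 could help a gene to be tested. The call lost was FBA2, a chloroplast aldolase, with 12.5, 1.92 and 1 RPKM at 12 h, against 0.418, 0.755 and 1.01 RPKM at 6 h (log2 change 0.5, limma adjusted p = 0.178 without that replicate). The list had summed to between 966 and 1118 RPKM at 0 h, so replicates 2 and 3 at 12 h lay just below that range and about 2-fold above the 6 h libraries. Its parts differed. Photosystem I genes summed to 158.2 and 175.2 RPKM in these replicates, above 107.5 to 131.2 RPKM at 0 h. Carbon fixation genes summed there to 299.7 and 297.0 RPKM. This lay below 447.4 to 546.7 RPKM at 0 h and above 211.9 to 236.2 RPKM at 6 h. Of 12 tested carbon fixation genes 9 were higher (median log2 change 1.31), and 8 without replicate 1 (0.89).

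Of photosystem I genes 11 of 12 were called, with a median log2 change of 2.46, or 2.17 without 12 h replicate 1. PSAH2, a subunit of that complex, had 27.7, 13.2 and 14.6 RPKM at 12 h, against 1.53, 0.962 and 0.965 RPKM at 6 h (log2 change 3.12, SE 0.26, limma adjusted p = 2.22e-07), and rose by 2.8 without 12 h replicate 1. PSAD-1, another subunit, had 35.3, 21.5 and 25.6 RPKM at 12 h, against 3.2, 3.37 and 4.14 RPKM at 6 h (log2 change 2.62, SE 0.23, limma adjusted p = 2.93e-07). Replicates 2 and 3 alone were more than 5-fold above the 6 h libraries in both. All 9 tested photosystem II genes rose, and PSBO1, of the oxygen-evolving complex, had 54.8, 23.9 and 29.3 RPKM at 12 h, against 5.53, 5.54 and 7.52 RPKM at 6 h (log2 change 2.29, SE 0.21, limma adjusted p = 6.15e-07). Of the light-harvesting genes 12 of 14 rose, such as LHCB5 with 32.4, 15.4 and 15.2 RPKM at 12 h, against 2.42, 2.01 and 2.44 RPKM at 6 h (log2 change 2.66, SE 0.29, limma adjusted p = 3.92e-06). For chlorophyll synthesis 11 of 13 rose. PORB, which reduces protochlorophyllide in light, had 42.1, 11.6 and 14.8 RPKM at 12 h, against 1.8, 1.97 and 2.31 RPKM at 6 h (log2 change 2.76, SE 0.36, limma adjusted p = 2.09e-05), with replicate 1 more than 2-fold above the other 12 h libraries. Without replicate 1 the log2 change of PORB was 2.22. CRD1, of the same pathway, had 34.3, 18.9 and 21.4 RPKM at 12 h, against 2.47, 3.17 and 2.83 RPKM at 6 h (log2 change 2.72, SE 0.25, limma adjusted p = 6.35e-07). GUN4, which promotes the step to magnesium-protoporphyrin, had 4.98, 2.69 and 2.18 RPKM at 12 h, against 0.128, 0.129 and 0.129 RPKM at 6 h, so it was barely detected at 6 h and passed the filter through the 12 h libraries alone.

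Other green genes were far higher in replicate 1 than in replicates 2 and 3. CAB1, a light-harvesting gene, had 89.4, 8.9 and 12.7 RPKM at 12 h, against 0.853, 1.96 and 1.96 RPKM at 6 h (log2 change 3.19, SE 0.62, limma adjusted p = 0.000808), and without replicate 1 it rose by 2.2. Its call was lost with voom on recovered reads (limma adjusted p = 0.0643). RBCS1A, the small subunit of Rubisco, had 96.2, 2.48 and 3.36 RPKM at 12 h, against 0.497, 1.87 and 0.875 RPKM at 6 h (log2 change 2.51, SE 0.91, limma adjusted p = 0.0337). Without replicate 1 its log2 change was 0.96, and 5 of 15 alternatives lost the call. RBCS1B had 15.6, 0 and 0 RPKM at 12 h, against 0, 0 and 0 RPKM at 6 h, and RBCS2B had 28.6, 0 and 0 RPKM at 12 h, against 0, 0 and 0.149 RPKM at 6 h. Neither was tested, since only replicate 1 passed 1 RPKM. CAB3, PRK (phosphoribulokinase of the Calvin cycle) and NPQ4 (the sensor of thermal energy loss) showed the same pattern, with 11, 3.02 and 7.83 RPKM in replicate 1 and no other value above 0.335 RPKM. So did the anthocyanin genes DFR and LDOX, with 1.12 and 1.31 RPKM in replicate 1 and 0 in the 5 other libraries. TT4, chalcone synthase, had 7.41, 0.598 and 1.28 RPKM at 12 h, against 0.171, 0.0857 and 0.344 RPKM at 6 h. Reads among RBCS and CAB copies cannot be assigned with certainty. STM, a shoot apex marker, had 1.21, 0.841 and 0.0935 RPKM at 12 h, against 0.0934, 0.281 and 0 RPKM at 6 h, while WUS was at 0 in all 6 libraries. The part of any tissue other than hypocotyl in replicate 1 was not tested.

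**Figure D3:**
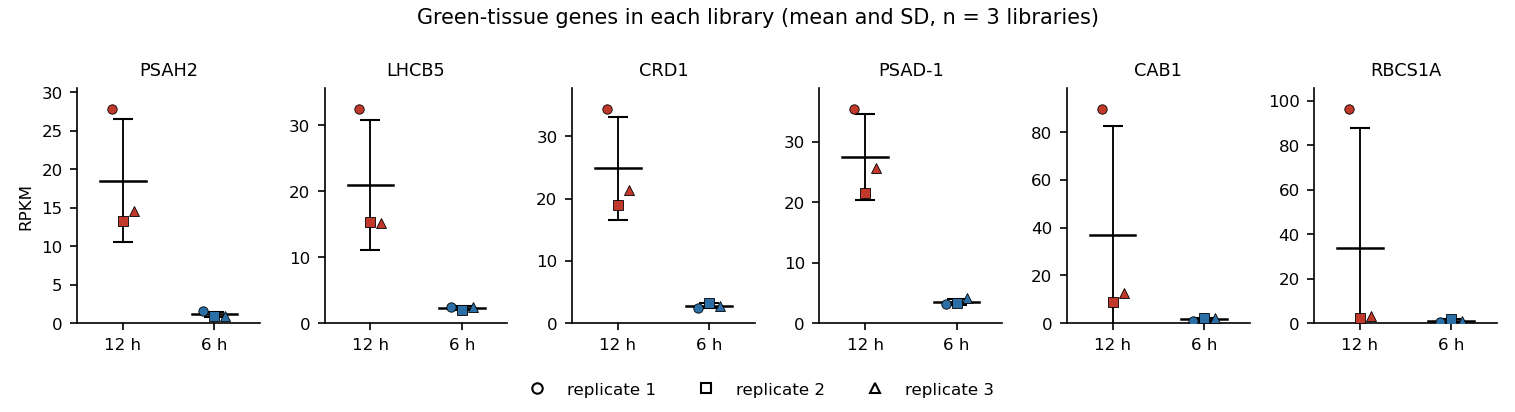
RPKM (vertical axes, from 0) of 6 green-tissue genes in each library at 12 h (red) and 6 h (blue), with circle, square and triangle for replicates 1, 2 and 3, the mean as a line and the SD as a bar (n = 3, with SD bars of CAB1 and RBCS1A ending at 0). In PSAH2, LHCB5, CRD1 and PSAD-1 all 3 libraries of 12 h lie above 6 h, while in RBCS1A replicate 1 stands at 96.2 RPKM and replicates 2 and 3 at 2.48 and 3.36 RPKM.

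Not every green gene rose. The Calvin cycle regulator CP12-2 had 5.91, 6.74 and 6.14 RPKM at 12 h, against 10.01, 10.04 and 10.5 RPKM at 6 h (log2 change -0.62, SE 0.25, limma adjusted p = 0.0535), opposite in sign to CP12-1, which had 63.6, 48.1 and 53.6 RPKM at 12 h, against 23.9, 22.7 and 19.1 RPKM at 6 h (log2 change 1.29, SE 0.19, limma adjusted p = 6.37e-05). All 12 h libraries of CP12-2 lay below all its 6 h libraries, but it was not called in the main fit. CP12-2 was called lower in the fit on the 6 libraries alone, after median centring, after quantile normalization and with the replicate block. The G-box CACGTG, a site of light-responsive factors, stood in 20 of 74 green promoters (27.0%) and in 7.68% of all protein-coding promoters. PSAH2, the called member with the largest rise among those with the motif in the 250 bases before the start, is shown with its G-boxes in capitals, which begin 67 and 12 bases before the start, on the plus strand at chr1:19454548-19454797 of TAIR10.1.
PSAH2: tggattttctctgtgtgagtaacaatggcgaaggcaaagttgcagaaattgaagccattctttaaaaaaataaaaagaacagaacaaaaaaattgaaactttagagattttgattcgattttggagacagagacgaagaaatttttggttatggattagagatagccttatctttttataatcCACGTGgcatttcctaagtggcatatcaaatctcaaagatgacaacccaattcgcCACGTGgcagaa

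**Figure D4:**
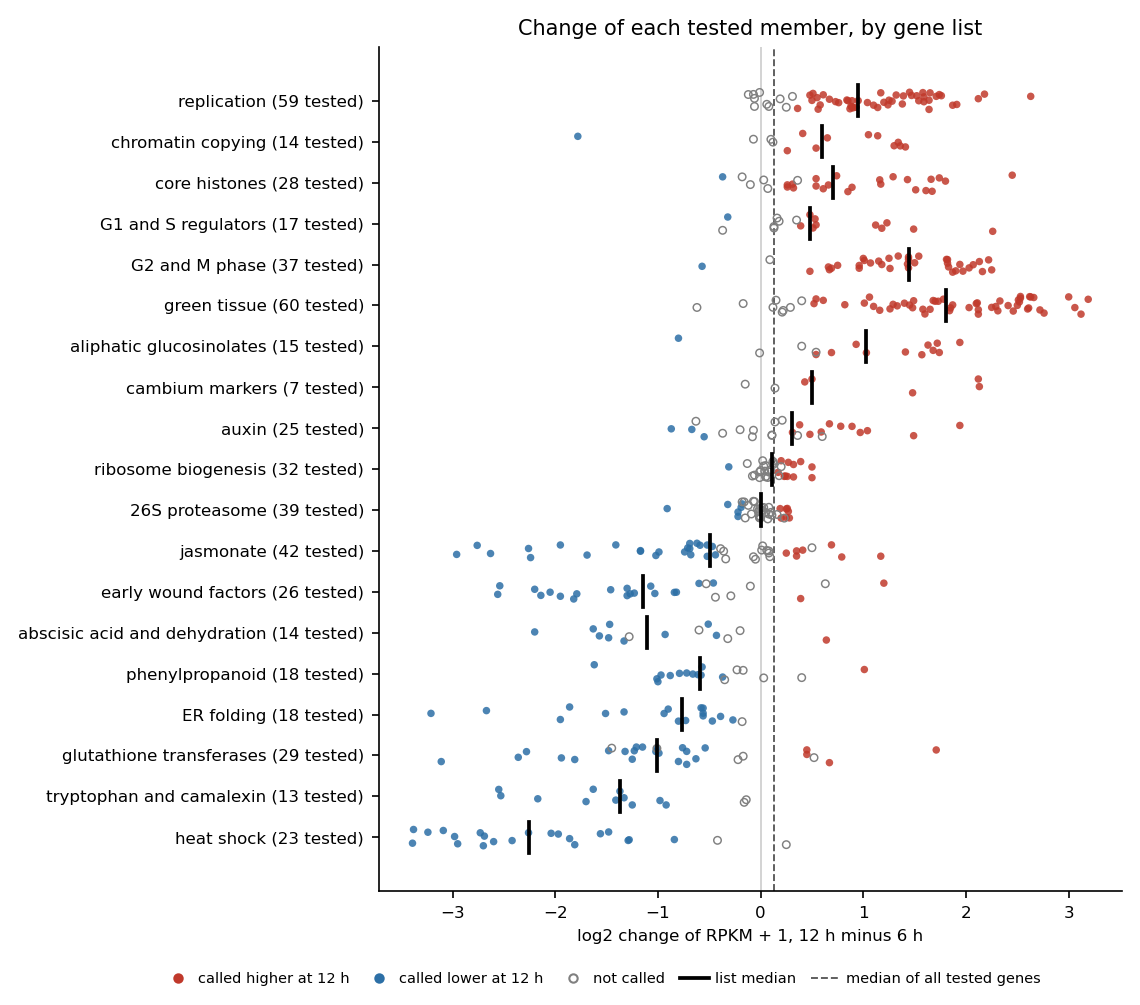
Log2 change of RPKM + 1, 12 h minus 6 h (horizontal axis), of each tested member of 19 gene lists, in red for members called higher, blue for members called lower and open for members not called, with a black tick at the list median and a dashed line at the median of all tested genes (0.135). Medians of these lists lie between 1.81 for green tissue and -2.26 for heat shock.

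Wound-signal genes were falling over the same hours. Of 29 early wound factors 26 were tested, with 2 higher and 19 lower, against 33.7% and 17.4% of all tested genes. The median log2 change of the list was -1.15, or -1.29 relative to all tested genes. WRKY33, a regulator of camalexin synthesis, had 29.9, 30.0 and 29.4 RPKM at 12 h, against 160.4, 184 and 193 RPKM at 6 h (log2 change -2.54, SE 0.18, limma adjusted p = 6.69e-08). WRKY40, a wound- and pathogen-induced factor, had 17, 22.9 and 11.8 RPKM at 12 h, against 98.5, 109 and 104 RPKM at 6 h (log2 change -2.56, SE 0.22, limma adjusted p = 4.78e-07). Every 12 h library was far below every 6 h library in both. RRTF1, an ERF factor tied to jasmonate and redox signals, fell by 2.2 on the log2 scale, ERF6 by 2.14 and the zinc finger gene ZAT11 by 1.95. WRKY60 went the other way, with 32.7, 29.7 and 23.4 RPKM at 12 h, against 13.3, 13.3 and 9.22 RPKM at 6 h (log2 change 1.2, SE 0.29, limma adjusted p = 0.00321). WRKY18 was also called higher (0.39), with overlapping groups and the call lost in 9 of 15 alternatives. All 5 zinc finger genes were lower.

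**Figure D5:**
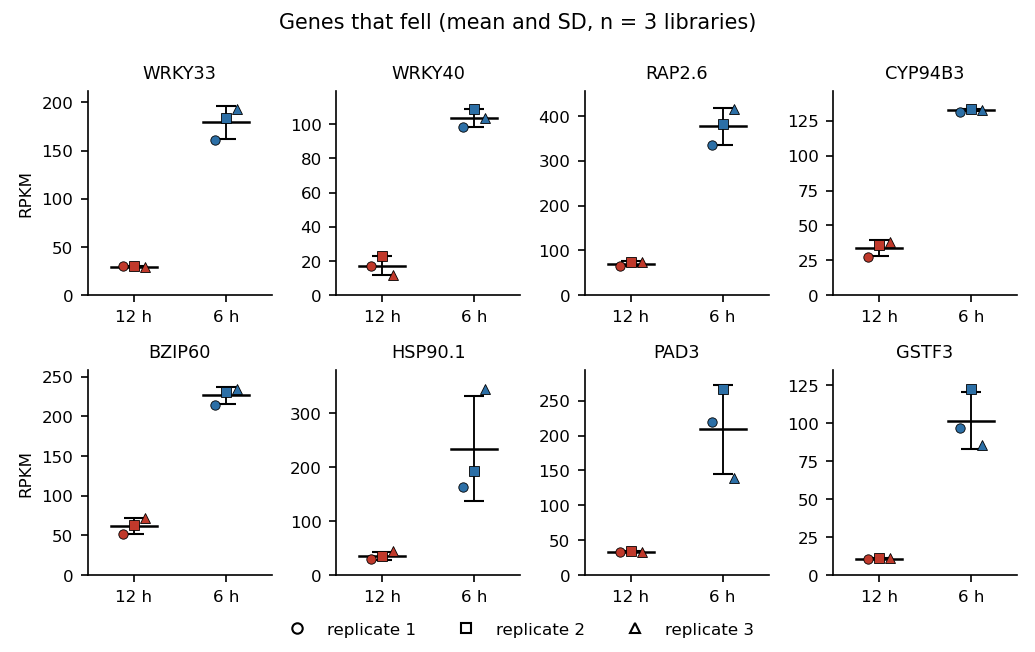
RPKM (vertical axes, from 0) of 8 genes that fell, in each library at 12 h (red) and 6 h (blue), with circle, square and triangle for replicates 1, 2 and 3, the mean as a line and the SD as a bar (n = 3). In each panel every 12 h library lies below every 6 h library, as for WRKY33, with 29.4 to 30 RPKM at 12 h and 160 to 193 RPKM at 6 h.

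Regulators linked to callus and regeneration were mixed, with 2 of 19 tested genes higher and 5 lower, and 1 higher and 5 lower after median centring. Among all tested genes 33.7% were higher and 17.4% lower. RAP2.4, the factor also named WIND1 that promotes callus at wounds, was not called, with 258, 292 and 289 RPKM at 12 h, against 268, 263 and 275 RPKM at 6 h (log2 change 0.05, SE 0.08, limma adjusted p = 0.602). RAP2.6 had 65.2, 73.7 and 73.5 RPKM at 12 h, against 334, 381 and 415 RPKM at 6 h (log2 change -2.39, SE 0.18, limma adjusted p = 8.53e-08), and AT5G07310 (synonym ERF115), which is known for renewing stem cells after damage, had 10.9, 16.6 and 16.9 RPKM at 12 h, against 39.4, 37.6 and 41.2 RPKM at 6 h (log2 change -1.38, SE 0.18, limma adjusted p = 2.03e-05). LBD16, a factor of lateral root founding and callus, fell by 0.93. AT1G22190, a close relative of RAP2.4, rose by 0.67. Rap2.6L was not called (260.5, 282 and 309.9 RPKM at 12 h, against 238, 252 and 299.8 RPKM at 6 h; log2 change 0.11, SE 0.12, limma adjusted p = 0.465). The ERF genes that fell had fully separated groups, while RAP2.4 and Rap2.6L overlapped.

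Jasmonate genes fell in part, with 7 of 42 tested genes higher and 23 lower, against 33.7% higher and 17.4% lower among all tested genes. After median centring 3 were higher and 26 lower. In synthesis 10 of 12 were lower, led by AOC2, an allene oxide cyclase, with 4.41, 4.29 and 3.64 RPKM at 12 h, against 33.4, 27.8 and 40.8 RPKM at 6 h (log2 change -2.76, SE 0.22, limma adjusted p = 1.45e-07). The repressor gene JAZ8 had 4.5, 8.58 and 2.49 RPKM at 12 h, against 43.3, 49.6 and 37.2 RPKM at 6 h (log2 change -2.96, SE 0.27, limma adjusted p = 6.7e-07), and CYP94B3, which oxidises the active hormone, had 27.5, 36.3 and 37.9 RPKM at 12 h, against 132, 133 and 132 RPKM at 6 h (log2 change -1.95, SE 0.15, limma adjusted p = 9.24e-08). All 3 genes were at least 3-fold lower in every 12 h library than in any 6 h library. The output gene VSP2, a storage protein, rose instead (104, 72 and 57.9 RPKM at 12 h, against 40.1, 26.4 and 34.2 RPKM at 6 h; log2 change 1.17, SE 0.23, limma adjusted p = 0.00071), as did the activator gene MYC4 (0.69).

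Genes of tryptophan and camalexin synthesis, glutathione transferases and the phenylpropanoid pathway were mostly lower as well. Among all tested genes 17.4% were lower and 33.7% higher. Glucosinolate genes are described further below. Of 13 genes of tryptophan and camalexin synthesis 11 were lower and 0 higher, and 1 of the 13 passed the filter through the 6 h libraries alone. ASA1, which commits chorismate to tryptophan, had 85, 72.8 and 64.5 RPKM at 12 h, against 247, 263 and 188 RPKM at 6 h (log2 change -1.63, SE 0.13, limma adjusted p = 1.73e-07). PAD3, the last enzyme of camalexin synthesis, had 33.1, 35.1 and 32.9 RPKM at 12 h, against 219.8, 267 and 139.8 RPKM at 6 h (log2 change -2.55, SE 0.3, limma adjusted p = 9.76e-06). Its 12 h values lay close together and below the lowest of the variable 6 h values. CYP79B2 and CYP79B3, which both pathways of indole defence compounds use, were not called (-0.16 and -0.14). Of 29 tested glutathione transferase genes 20 were lower and 4 higher. GSTF3 had 10.4, 11 and 11 RPKM at 12 h, against 96.8, 123 and 85.8 RPKM at 6 h (log2 change -3.11, SE 0.16, limma adjusted p = 2.32e-09), while GSTU20 rose by 1.71. PAL2, an entry enzyme of the phenylpropanoid pathway, had 149, 168 and 163 RPKM at 12 h, against 490.2, 552 and 447 RPKM at 6 h (log2 change -1.62, SE 0.13, limma adjusted p = 1.47e-07), and 12 of 18 genes of that pathway were lower and 1 higher.

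Heat shock genes had the lowest median of the lists in the plot of change by list. All 10 small heat shock protein genes and 11 of 13 larger chaperone and factor genes were lower, against 17.4% of all tested genes. The list median was -2.26. Of the 23 genes, 1 passed the filter through the 6 h libraries alone. HSP90.1 had 28.9, 35.9 and 43.9 RPKM at 12 h, against 164, 194 and 346 RPKM at 6 h (log2 change -2.6, SE 0.25, limma adjusted p = 1.18e-06). HSP101, which dissolves protein aggregates, had 11.2, 12.2 and 14.1 RPKM at 12 h, against 37.6, 47.1 and 141 RPKM at 6 h (log2 change -2.26, SE 0.36, limma adjusted p = 0.000143). The 6 h values were spread, with replicate 3 highest in 22 of the 23 genes (95.7%), against 36.7% of all tested genes, and in HSP90.1 and HSP101 they remained above all 12 h values. In the endoplasmic reticulum 17 of 18 genes were lower and 0 higher, against 17.4% and 33.7% of all tested genes. BZIP60, the factor activated by splicing when folding fails, had 51.9, 63.2 and 71.5 RPKM at 12 h, against 214, 231 and 235 RPKM at 6 h (log2 change -1.86, SE 0.11, limma adjusted p = 6.2e-09). BIP3, an inducible chaperone, had 15.2, 11.7 and 47.3 RPKM at 12 h, against 172, 223 and 202 RPKM at 6 h (log2 change -3.21, SE 0.37, limma adjusted p = 6.64e-06), and BIP2 had 265, 246 and 285 RPKM at 12 h, against 608, 707 and 693 RPKM at 6 h (log2 change -1.33, SE 0.14, limma adjusted p = 2.67e-06). In BIP3 the 12 h libraries disagreed, with replicate 3 highest, but none came near the 6 h values. The folding list summed to between 863 and 1076 RPKM at 0 h, and to between 2836 and 3136 RPKM at 12 h.

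Water and oxygen stress genes followed the same direction. Among all tested genes 17.4% were lower and 33.7% higher. Of 14 tested abscisic acid and dehydration genes 9 were lower and 1 higher, and 1 of the 14 passed the filter through the 6 h libraries alone. COR47, a dehydrin, had 164, 152 and 157 RPKM at 12 h, against 414, 441 and 649 RPKM at 6 h (log2 change -1.63, SE 0.13, limma adjusted p = 1.35e-07). NCED3, the rate-limiting enzyme of abscisic acid synthesis, had 3.96, 5.34 and 3.36 RPKM at 12 h, against 9.8, 8.84 and 7.87 RPKM at 6 h (log2 change -0.93, SE 0.15, limma adjusted p = 0.000101). Of 12 tested low-oxygen genes 9 were lower and 0 higher, among them HB1, a haemoglobin induced without oxygen, with 38, 34.4 and 36.4 RPKM at 12 h, against 87, 93.9 and 103 RPKM at 6 h (log2 change -1.36, SE 0.09, limma adjusted p = 2.38e-08). Groups did not overlap in these 3 genes.

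Auxin transport genes rose, while cytokinin genes were mixed. Of 8 auxin carriers 7 were higher, against 33.7% of all tested genes, and 6 after median centring. LAX2, an influx carrier, had 8.46, 11.2 and 10.1 RPKM at 12 h, against 2, 1.52 and 2.01 RPKM at 6 h (log2 change 1.94, SE 0.13, limma adjusted p = 3.44e-08), and PIN3, an efflux carrier, had 25.6, 27.3 and 23.1 RPKM at 12 h, against 12.6, 13.3 and 11.5 RPKM at 6 h (log2 change 0.97, SE 0.12, limma adjusted p = 6.85e-06). PIN4 was called (0.31), but its groups overlapped and 7 of 15 alternatives lost the call. IAA14 rose by 1.49, while IAA2 fell by 0.67. In cytokinin synthesis IPT3, which makes the hormone's backbone, had 57.8, 57.4 and 64.3 RPKM at 12 h, against 27.4, 22.2 and 29.4 RPKM at 6 h (log2 change 1.16, SE 0.2, limma adjusted p = 0.000225), but LOG7, which frees the active base, had 33.5, 34 and 26.6 RPKM at 12 h, against 104, 94.3 and 107 RPKM at 6 h (log2 change -1.67, SE 0.13, limma adjusted p = 8.78e-08). Of 22 tested cytokinin genes 8 were higher and 5 lower, near the 33.7% and 17.4% of all tested genes. After median centring 3 were higher and 6 lower. Of the 22, 1 passed the filter through the 12 h libraries alone. Of 8 tested type-A response regulators 5 were higher and 1 lower, but after centring 2 were higher and 1 lower. RR5 had 67.1, 66.2 and 74.6 RPKM at 12 h, against 38.3, 30.4 and 40.7 RPKM at 6 h (log2 change 0.92, SE 0.13, limma adjusted p = 2.5e-05). The IPT3 and LOG7 libraries were fully separated in opposite directions.

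Markers of hypocotyl cell types moved unevenly. Of 7 cambium markers 5 were higher and 0 lower, against 33.7% and 17.4% of all tested genes. WOX4, which maintains cambial division, had 11.2, 15.7 and 11.8 RPKM at 12 h, against 1.77, 2.6 and 2.13 RPKM at 6 h (log2 change 2.13, SE 0.2, limma adjusted p = 5.74e-07). ANT had 8.93, 10.9 and 9.91 RPKM at 12 h, against 1.19, 1.67 and 1.67 RPKM at 6 h (log2 change 2.12, SE 0.13, limma adjusted p = 9.37e-09), and PXY, the receptor upstream of WOX4, had 23.6, 29.8 and 29.8 RPKM at 12 h, against 9.37, 9.44 and 8.93 RPKM at 6 h (log2 change 1.48, SE 0.1, limma adjusted p = 2.44e-08). Each was apart between the groups. The cambium list summed to 178.9, 230.3 and 225.3 RPKM at 12 h, against 149.3, 156.1 and 165.5 RPKM at 6 h. Of 3 endodermis markers 2 were higher, 0 lower and 1 not called. Without 12 h replicate 1 only 1 of them was higher, and with voom also 1. In the endodermis MYB36, the master regulator of the Casparian strip, had 17.4, 19 and 11.2 RPKM at 12 h, against 3.11, 2.32 and 2.33 RPKM at 6 h (log2 change 2.21, SE 0.22, limma adjusted p = 1.33e-06), and CASP1, which scaffolds that barrier, had 31.4, 46.2 and 17.1 RPKM at 12 h, against 1.79, 9.11 and 1.65 RPKM at 6 h (log2 change 2.85, SE 0.97, limma adjusted p = 0.0265). CASP1 was not called without 12 h replicate 1 (limma adjusted p = 0.0612), nor without 12 h replicate 2, 6 h replicate 1 or 6 h replicate 3, and 6 h replicate 2 was its highest 6 h library. Of 13 xylem markers 1 was higher and 0 lower, both below the shares of all tested genes, and after median centring 0 were higher. They summed to between 407.6 and 492.8 RPKM at 12 h and between 364.1 and 477.9 RPKM at 6 h. Of 7 phloem markers 1 was higher and 2 lower, and they summed to between 224.1 and 307.1 RPKM at 12 h and between 240.7 and 295.2 RPKM at 6 h. Xylem, phloem and cambium markers, which a stem should hold, were present in all 6 libraries. Of 9 epidermis and stomata markers 5 were tested, 1 of them through the 6 h libraries alone, and 1 was higher. SPCH and MUTE, which define stomatal precursors, were at 0 in all 6 libraries. None of 4 root hair and 3 shoot apex markers and 1 of 11 seed storage markers passed the filter. The part of these cell types in the changes above was not tested.

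Over all called genes with a symbol, the 12 largest rises included green genes and genes not yet described. LAC3, a laccase, had 19.5, 23.4 and 12.4 RPKM at 12 h, against 0.373, 3.18 and 0.188 RPKM at 6 h (log2 change 3.31). GASA5, a small gibberellin-regulated peptide, had 71.5, 98.3 and 85.5 RPKM at 12 h, against 11.3, 7.98 and 15 RPKM at 6 h (log2 change 2.82). The calls of LAC3, CASP1, CASP4, UCC1 and CAB1 were each lost in at least 1 alternative, and 6 h replicate 2 was the highest 6 h library for LAC3, CASP1, CASP4 and UCC1. Among the largest falls beyond the heat and folding genes, ABR1, an ERF factor, had 15.3, 19.2 and 19.9 RPKM at 12 h, against 124, 137 and 179 RPKM at 6 h (log2 change -2.94) and CYP715A1, a cytochrome P450, had 1.22, 1.14 and 1.63 RPKM at 12 h, against 17.1, 19.6 and 18.4 RPKM at 6 h (log2 change -3.06). GASA5, ABR1 and CYP715A1 had no overlap between 12 h and 6 h.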

How the data were processed

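The labels describe total RNA of cut etiolated hypocotyls, extracted with a Qiagen kit and made into libraries with a stranded TruSeq mRNA kit. The authors deposited RPKM values per gene, on TAIR10 per the submitters' processing notes, and the sources used here do not give the aligner, the counter or how reads matching more than 1 gene were handled. Depths were recovered first, from steps in the deposited RPKM and annotated transcript lengths, and read numbers followed from the depths. Whole reads were reached for 24834 of 24834 genes above 0 (tolerance 0.01). For 4684 genes an annotated length gave them. For the others a length was chosen to give whole reads, so this outcome was partly built in.

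Genes with RPKM of at least 1 in at least 2 of the 6 libraries were tested on log2(RPKM + 1) with limma 3.58.1 (R 4.3.3; trend and robust moderation) in a fit of all 17 libraries, with Benjamini-Hochberg adjusted p of 0.05 over all tested genes. The script was checked on simulated data. The members and lists were chosen with earlier results of these data known. Text names the 12 largest rises and falls among called genes with a symbol, a mean log2 of at least 2 and separated groups, up to 4 called members per role and direction, and members needed to account for a list. Some uncalled or further members were named after their values were seen. Promoters are from RefSeq TAIR10.1, matched by locus. 15 alternatives were tried.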

Additional observations from a re-analysis of the deposited data

How the results depend on the processing

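Of 362 named genes, 278 kept direction and call in all 15 alternatives. The count of genes higher at 12 h, 6263, was between 5385 and 5920 and the count lower, 3228, between 2767 and 3000 when each library was left out in turn. Quantile normalization gave 4805 higher and 4113 lower. The count at least 2-fold higher, 1064, was 1683 with a pseudocount of 0.1 and 1708 with voom on recovered reads, an alternative chosen after seeing the data, and between 1016 and 1153 with a library left out. Replication genes called lower numbered 1 after median centring (TK1a) and 1 after quantile normalization (RPA1A, log2 change -0.27), against 0. Green-tissue genes called lower numbered 1 in the fit on 6 libraries, 2 after centring (CP12-2 and GSA1), 1 after quantile normalization and between 0 and 1 with a library left out (GSA1 without 6 h replicate 3). Their median log2 change, 1.81, was 2.49 with a pseudocount of 0.1 and 2.5 with voom.

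Changes of sign came in genes near 0 that were not called. After median centring ORC5 was at -0.07, THY-1 at -0.04, RAP2.4 at -0.07, Rap2.6L at -0.01, PC-MYB1 at -0.03, VIM1 at -0.03 and SOG1 at -0.10. After quantile normalization ORC5 was at -0.15, POLD4 at 0.03, PC-MYB1 at -0.02, DPB at -0.05 and SOG1 at -0.10. With a library left out ORC5 was between -0.03 and 0.14, POLD4 between -0.07 and 0.07, RPA1A between -0.11 and 0.03, TK1b between -0.11 and 0.01, SOG1 between -0.05 and 0.09 and CYP79B3 between -0.31 and 0.01. The causes were not tested.

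Replicate numbers are shared between the groups. Deviations of same-numbered libraries correlated at 0.096, 0.073 and 0.204, and those of other pairs at between -0.171 and 0.09. The 6 h replicates 1 and 3 correlated best with their own number. The 6 h replicate 2 correlated at 0.09 with 12 h replicate 1 and at 0.073 with its own number. All values were low, and the numbers were not taken to pair the libraries in the main fit. With a replicate block 6427 genes were higher and 3325 lower, replication genes higher numbered 50, and green-tissue genes called lower numbered 1 (CP12-2). Depth limits statements on genes of 1 kb under 0.384 RPKM.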

Other observations

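Aliphatic glucosinolate genes, which make the methionine-derived defence compounds of the cabbage family, were mostly higher at 12 h: 11 of 15 tested genes were higher and 1 lower, with a median log2 change of 1.03, against 33.7% higher and 17.4% lower among all tested genes. Of the 15, 2 passed the filter through the 12 h libraries alone. The summed level of the whole list overlapped between the groups, unlike most single genes. It was 370.7, 429.6 and 315.5 RPKM at 12 h, against 362.9, 322.7 and 308.2 RPKM at 6 h. IPMI1, of side chain elongation, had 10.3, 16 and 6.65 RPKM at 12 h, against 2.15, 1.54 and 2.26 RPKM at 6 h (log2 change 1.94, SE 0.29, limma adjusted p = 5.93e-05). Its groups did not overlap, and 12 h replicate 3 was lowest of the 12 h libraries, as in 14 of the 15 genes. Indole glucosinolate genes moved the other way in part, with 3 of 15 higher and 7 lower, and 1 higher and 7 lower after quantile normalization. MYB51, an activator of that branch, fell by 2.3 on the log2 scale while its relative MYB34 rose by 0.9.

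Genes of the DNA damage response were called higher in 6 of 11 tested cases and lower in 0, against 33.7% and 17.4% of all tested genes, and 1 of the 11 passed the filter through the 12 h libraries alone. After median centring 5 were higher and 1 lower, after quantile normalization 3 higher and 1 lower, and with voom 6 higher and 1 lower. BARD1, which acts in repair of double-strand breaks, had 5.82, 6.04 and 5.68 RPKM at 12 h, against 0.954, 1.12 and 1.12 RPKM at 6 h (log2 change 1.73, SE 0.14, limma adjusted p = 1.41e-07). SOG1, the factor that starts the plant damage response, was not called (10.7, 11.6 and 13.2 RPKM at 12 h, against 11.1, 11.5 and 12.2 RPKM at 6 h; log2 change 0.02, SE 0.08, limma adjusted p = 0.83). BARD1 groups were fully apart and SOG1 groups overlapped.

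Of 23 clock genes 9 were higher and 7 lower, a share called higher near the 33.7% of all tested genes, with 17.4% of all lower. LHY, a morning repressor of the clock, had 13.9, 15.6 and 14.4 RPKM at 12 h, against 4.21, 3.28 and 3.45 RPKM at 6 h (log2 change 1.76, SE 0.1, limma adjusted p = 9.29e-09), and its mean at 3 h was 5.67 RPKM. FKF1, an evening photoreceptor, had 0.902, 0.844 and 0.422 RPKM at 12 h, against 1.81, 2.24 and 2.48 RPKM at 6 h, and passed the filter through the 6 h libraries alone. The groups of LHY did not overlap.

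Ribosome biogenesis genes were called higher in 11 of 32 cases and lower in 1, a share near the 33.7% of all tested genes, but after median centring in 2 and 2. Proteasome genes were called higher in 7 of 39 cases and lower in 6, against 33.7% and 17.4% of all tested genes. After centring these counts were 0 and 10.

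RWP1 (synonym ASFT), which attaches ferulate to suberin, had 58.8, 57.5 and 50.5 RPKM at 12 h, against 22.6, 25.9 and 18 RPKM at 6 h (log2 change 1.3, SE 0.32, limma adjusted p = 0.00346), with every 12 h library above every 6 h library, while 5 of 17 tested suberin genes were higher and 0 lower, no more than the 33.7% called higher among all tested genes. After median centring 4 were higher and 2 lower, and after quantile normalization 3 higher and 1 lower. Of the 17, 2 passed the filter through the 12 h libraries alone and 1 through the 6 h libraries alone.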
